A study of Homo sapiens with 12 samples.

Results

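The proteasome subunit genes were described in PC9, HCC827 and HCC4006, 3 established lines of human lung cancer cells that carry a mutation in EGFR. The members are the genes of the deposited table whose symbol is PSMA, PSMB, PSMC, PSMD or PSME followed by a number, without the immunoproteasome genes PSMB8, PSMB9 and PSMB10. This gave 39 of the 57905 genes in the table. Control cells of each line were kept in DMSO, the solvent, for 24 hours. The other cells, labelled dormant, were kept for 2 weeks in 100 nM osimertinib, which inhibits EGFR, and 30 nM trametinib, which inhibits the downstream kinase MEK. Each line and treatment has 2 libraries of stranded mRNA, 12 in all, and the labels name no genetic change. Dormant cells differ from control cells in drug, in time in culture and in the size of the dish, and these cannot be told apart. Plates were duplicates, and no label states that they came from separate cultures, so the p-values given reflect the spread between the samples at hand, which may be technical.

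The proteasome is the protease of the cytoplasm and nucleus that degrades proteins tagged with ubiquitin. Its core particle is a barrel of outer alpha rings (PSMA genes) and inner beta rings (PSMB genes), and the beta subunits PSMB5, PSMB6 and PSMB7 carry the catalytic sites. A regulatory particle binds the barrel, with a ring of ATPases (PSMC genes) that unfolds substrates and further subunits (PSMD genes) that bind and remove ubiquitin. Other caps, the activators (PSME genes), open the barrel without ubiquitin recognition. In cells exposed to interferon the subunits PSMB8, PSMB9 and PSMB10 take the place of the catalytic subunits and PSME1 and PSME2 are induced, which changes the peptides available to class I HLA molecules.

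In the mean over the 3 lines, PSME1 alone of the 37 members tested was called changed in dormant cells, and it rose by 1.38 ± 0.37 (SE) on the log2(FPKM + 1) scale. Of all genes tested, 10.9% were called higher and 4.55% lower. The other 36 members were not called, and 32 of the 37 had a negative difference. With 2 libraries that stood apart left out, 9 members were called lower, among them PSMD12, PSMA7 and PSMB2, and 2 were called higher, PSME1 and PSME2, where 12.8% of all genes were called lower and 30% higher. The mean differences were imprecise, with a median SE of 0.37 over the members. FPKM is a fragment count scaled to transcript length and library size. All differences are dormant minus DMSO on the log2(FPKM + 1) scale, and called means an adjusted p under 0.05 in limma, with the Benjamini-Hochberg adjustment taken over all 14699 tested genes.

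A pair of libraries, called the doubted libraries here, differed from their replicates over many genes. They were the second HCC4006 dormant library and the second HCC827 DMSO library. Their replicate pairs correlated across genes, which are not independent replicates, at a Pearson r of 0.654 and 0.909, against 0.979 to 0.991 in the other 4 groups. The sequencing depth is unknown, since the values are FPKM with no counts, and the FPKM of a library summed to 793883 to 1159352. The epithelial markers EPCAM, KRT8, KRT18, KRT19, CDH1 and EGFR were above 0 in all 12 libraries. KRT8, KRT18 and KRT19 were at 5.87, 13.0 and 9.91 FPKM in the second HCC4006 dormant library, where the next lowest library had 103, 276 and 237. The second HCC4006 dormant library stood apart beyond these markers. Its GAPDH level was 6.725 FPKM, against 3755 to 19645 in the others. It had 1948 tested genes at 0, against 368 to 802 in the others. Of 8 markers of immune, endothelial and stromal cells, 7 were in the table and their summed level was 0.43 to 1.5 FPKM in the 4 PC9 libraries and the HCC827 and HCC4006 DMSO libraries, 3.01 to 3.06 in dormant HCC827 and 7.77 to 15.4 in dormant HCC4006. In the second HCC4006 dormant library COL1A1 was at 12.2 FPKM and VWF at 3.05, the highest value of each. PTPRC, CD14, LYZ and DCN had at most 0.14, 0.99, 0.21 and 0.105 FPKM in any library. The T-cell marker CD3E was at 0 in all 12. In bulk RNA, fewer cells of a type and less RNA per cell cannot be told apart.

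The promoter sequences of 4 members whose results are described below are shown with the elements searched for. They are those of PSME1, the member called in the mean over the 12 libraries, its partner PSME2, PSMD12 and the deubiquitinase gene PSMD14. PSMD12 had the most negative difference without the doubted libraries. Each sequence is the 250 bases before the gene's start in RefSeq on GRCh38.p14, from 5′ to 3′ on the gene's strand. They lie at chr14:24135944-24136193 (plus strand), chr14:24146611-24146860 (minus), chr17:67366578-67366827 (minus) and chr2:161308175-161308424 (plus). Capitals mark the letters TGACNNNGC (the core of the antioxidant response element, bound by NFE2L1 and NFE2L2), CCAAT (bound by NF-Y) or a pair of GAAA separated by 2 bases (the core of the interferon-stimulated response element).
PSME1: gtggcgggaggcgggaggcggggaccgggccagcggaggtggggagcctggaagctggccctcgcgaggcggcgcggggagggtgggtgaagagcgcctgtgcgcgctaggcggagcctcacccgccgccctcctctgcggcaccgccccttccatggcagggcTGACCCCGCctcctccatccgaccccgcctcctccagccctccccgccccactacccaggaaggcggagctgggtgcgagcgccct
PSME2: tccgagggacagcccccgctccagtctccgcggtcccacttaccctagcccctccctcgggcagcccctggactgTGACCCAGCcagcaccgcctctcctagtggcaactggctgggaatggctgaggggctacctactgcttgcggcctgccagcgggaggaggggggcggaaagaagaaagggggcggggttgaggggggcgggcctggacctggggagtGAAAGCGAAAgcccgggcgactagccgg
PSMD12: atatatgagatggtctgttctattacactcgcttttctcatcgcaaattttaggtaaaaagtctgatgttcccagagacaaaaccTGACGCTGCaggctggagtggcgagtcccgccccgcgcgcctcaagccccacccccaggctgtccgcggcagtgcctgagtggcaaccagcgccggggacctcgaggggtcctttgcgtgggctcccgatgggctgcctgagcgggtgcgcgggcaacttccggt
PSMD14: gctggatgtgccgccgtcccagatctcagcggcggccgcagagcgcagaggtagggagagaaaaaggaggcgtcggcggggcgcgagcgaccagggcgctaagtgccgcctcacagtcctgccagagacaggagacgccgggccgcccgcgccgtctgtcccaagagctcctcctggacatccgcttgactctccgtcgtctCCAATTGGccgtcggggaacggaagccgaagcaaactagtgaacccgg

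TGACNNNGC began at position -86 from the start in PSME1, -175 in PSME2 and -165 in PSMD12, all on the gene's own strand. The GAAA pair began at -28 in PSME2. In PSMD14 the capitals hold CCAAT at -48 on the gene's strand and at -45 on the other, and these 2 matches overlap. The same windows of PSMD11 and PSMC1, also described below and not shown, held none of these elements. A promoter was found for 32 of the 37 tested members. On either strand, TGACNNNGC was in 9 of these 32 (28.1%), against 13.2% of 27305 genes with a promoter of the same length. CCAAT was in 15 (46.9%) against 37.0%, and TGAGTCA, an AP-1 type element, in 3 (9.38%) against 5.19%. The GAAA pair, added after the values were seen, was in 3 (9.38%) against 3.71%: PSMA4, PSMB4 and PSME2. A match is only a description of the letters in this window.

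The proteasome genes were among the well expressed genes of every library. The median member had 95.98 to 211 FPKM in 11 libraries and 53.6 in the second HCC4006 dormant library, where the median of all tested genes was 1.89 to 4.46 FPKM across the 12. Together the members made up 0.634% to 1.41% of the summed FPKM. FPKM is per length, so members can be compared within a library. By the median over the 12 libraries, core particle genes were the highest: PSMA6 at 779 FPKM, PSMA2 at 542, PSMA7 at 424, PSMB6 at 384 and PSMB7 at 340. The lid subunit gene PSMD3 was the lowest at 4.31, followed by the activator gene PSME4 at 7.05, the assembly chaperone gene PSMD5 at 15.2 and PSME3 at 28.5. The median of the member medians was 263 FPKM for the alpha ring, 312 for the beta ring, 116 for the ATPase ring, 80.8 for the PSMD genes and 116 for the activators. PSMA8, a subunit of germ cell proteasomes, was at 0 in all 12 libraries. PSMB11, the thymus subunit, was at 0 in 11 and at 0.455 FPKM in the second HCC4006 dormant library. Both were left out of the tests by the filter on low values. PSMB3 has no row under its symbol and is not analysed here.

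**Figure D1:**
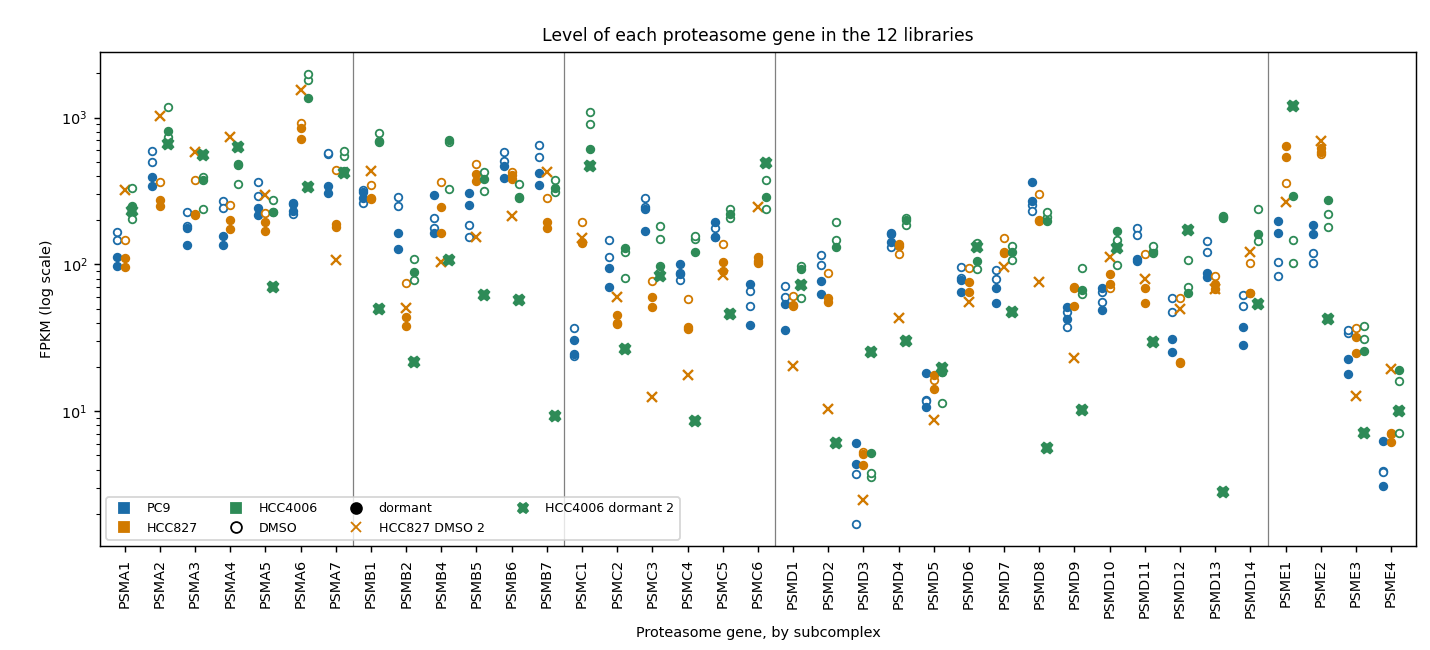
FPKM (log axis) of the 37 tested proteasome genes in each of the 12 libraries, ordered by subcomplex (alpha ring, beta ring, ATPase ring, PSMD genes, activators). Colour is the cell line, open circles are DMSO, filled circles dormant, and crosses the 2 doubted libraries; most members lie near 100 FPKM, and the cross of the second HCC4006 dormant library falls far below the other libraries for PSMB7, PSMD8 and PSMD13.

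Most members had a lower mean value in dormant than in DMSO cells, and the fit over all genes called PSME1 alone. In the mean of the 3 lines 1 member was called higher and 0 lower by limma (10.9% and 4.55% of all genes). At an unadjusted p under 0.05, 2 were higher and 2 lower, where 22.6% and 9.64% of all genes were. The median difference of the members was -0.43, where that of all genes was 0.22. Of the 37 members 32 were negative, and 36.5% of all genes were. With median of ratios scaling these medians were -0.73 and 0.03, and with quantile normalization -0.48 and 0.03. Scaling moves the median of all genes by more than 0.1, and the median of the members lay below it under each of these scalings.

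No member was called in any single line by limma over the 12 libraries. In this fit 1 spread per gene is shared by all 6 groups. The SE and p of a line therefore do not measure the spread of that line alone. In PC9 the background was 1.82% of genes higher and 0.891% lower, in HCC827 3.06% and 1.44%, and in HCC4006 4.88% and 1.18%. The smallest adjusted p of a member was 0.629 in PC9, 0.24 in HCC827 and 0.0667 in HCC4006, the last for PSME1. At an unadjusted p under 0.05 there were 0 members in PC9 (7.34% of all genes higher and 4.8% lower), 1 lower in HCC827 (5.42%), and 2 higher (21.8%) and 1 lower (7.91%) in HCC4006. The median member difference was -0.35 in PC9, -0.15 in HCC827 and -0.88 in HCC4006, where all genes had 0.05, 0.22 and 0.15. Leaving out the doubted libraries made these -0.37 in HCC827 and -0.06 in HCC4006. The moderated F test for a varying difference among the lines called 0 members, where it called 1.48% of all genes. Its smallest adjusted p was 0.461, and no member had an unadjusted p under 0.05, where 12.4% of all genes did. With each line fitted alone, PC9 had 1 member called higher and 4 lower (10.9% and 7.35% of all genes). HCC827 and HCC4006 fitted alone had 0 members called (0% of all genes).

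The 95% intervals of the mean differences were wide. They lay within 1 log2 unit of 0 for 7 of the 37 members. They left out a fall of 1 unit for 9 members and a rise of 1 unit for 33. The median SE of the members was 0.37, against 0.292 over all genes and 0.153 for the members without the doubted libraries. A member that was not called is therefore not shown to be unchanged.

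Both dormant libraries lay below both DMSO libraries for 20 of the 37 members in PC9, where 27% of all genes did so, and above for 5, where 35.5% did. In HCC827 this held for 14 lower (19.4% of all genes) and 2 higher (40.1%), and in HCC4006 for 10 lower (15.8%) and 2 higher (30.4%). PC9 and HCC827 shared 10 members without overlap and lower, against 10.8% of all genes: PSMA1, PSMA2, PSMA3, PSMA4, PSMA5, PSMB2, PSMB7, PSMD11, PSMD12 and PSMD14. In all 3 lines this held for PSMD11 alone (4.43% of all genes), and PSME1 alone was higher without overlap in all 3 (9.12%).

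**Figure D2:**
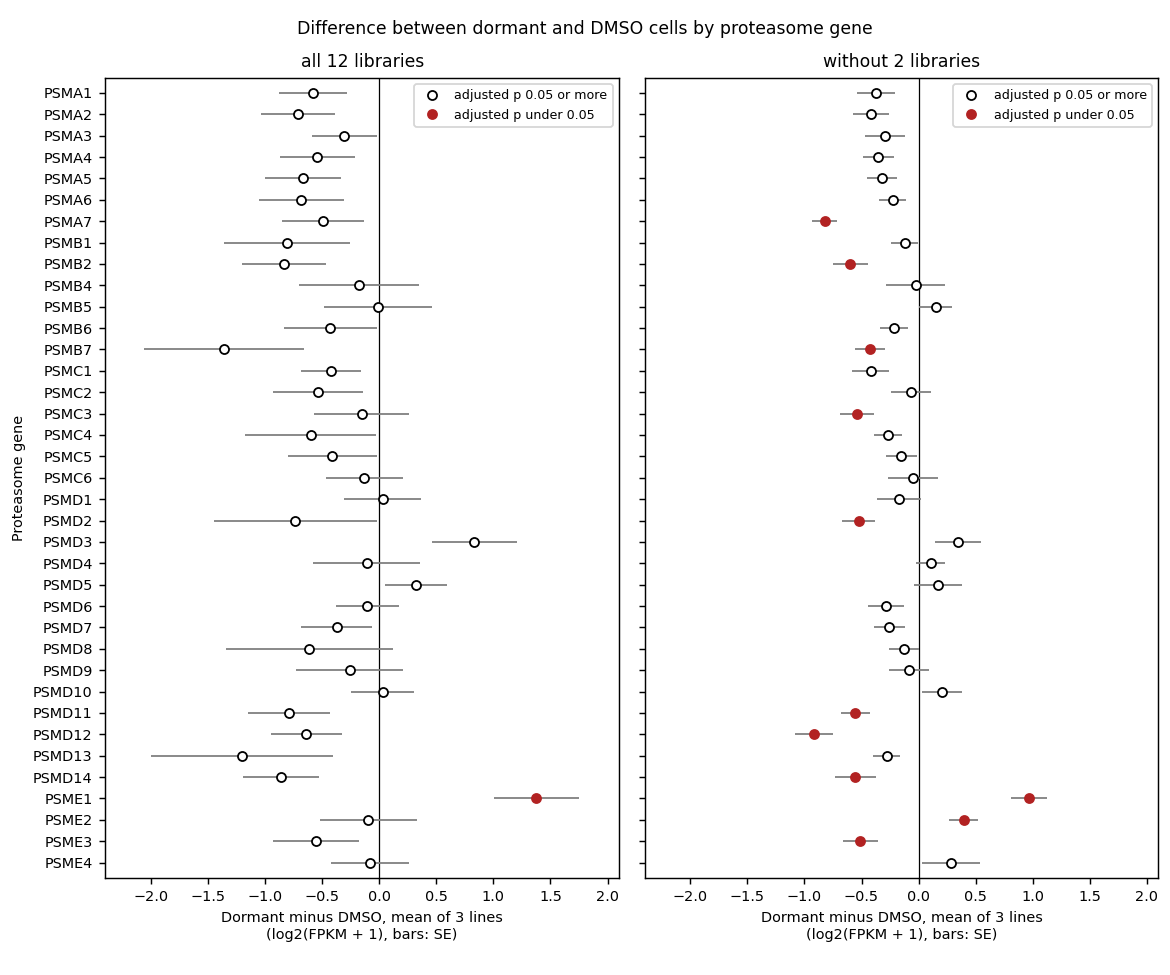
Dormant minus DMSO, mean of the 3 lines, for each of the 37 tested proteasome genes on the log2(FPKM + 1) scale, with SE bars, over all 12 libraries (left) and without the 2 doubted libraries (right). Filled points have an adjusted p under 0.05: PSME1 on the left, and PSME1, PSME2 and 9 lower members on the right, where all 37 lie within 1 unit of 0 and the bars are shorter.

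With the doubted libraries left out, an alternative added after seeing the values, the dormant HCC4006 and the HCC827 DMSO groups hold 1 library each, which is assumed to vary like the other groups. Then 2 members were called higher in the mean and 9 lower by limma (30% and 12.8% of all genes). The 9 were PSMD12 at -0.92 ± 0.17, PSMA7 at -0.82 ± 0.11, PSMB2 at -0.60 ± 0.16, PSMD11 at -0.55 ± 0.13, PSMD14 at -0.55 ± 0.18, PSMC3 at -0.54 ± 0.15, PSMD2 at -0.53 ± 0.14, PSME3 at -0.51 ± 0.15 and PSMB7 at -0.42 ± 0.13. All 37 differences were within 1 log2 unit of 0, and 29 were negative. In PC9, 3 members were called higher (PSMB5, PSME1 and PSME2; 13.1% of all genes) and 8 lower (8.65%): PSMA4, PSMA7, PSMB2, PSMB7, PSMD11, PSMD12, PSMD13 and PSME3. In HCC827, 0 were called higher (11.1%) and 3 lower (6.57%): PSMA7, PSMD11 and PSMD12. In HCC4006, PSME1 alone was called higher (14.9%) and 0 lower (3.72%). The F test between lines again called 0 members, where it called 8.92% of all genes, with 4 members at an unadjusted p under 0.05 (25.1% of all genes). The members called lower in the mean were 24.3% of those tested and the members called higher 5.41%.

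Of the alpha ring genes, which gate the barrel, 0 were called over the 12 libraries. All 7 tested were negative in the mean, from -0.71 to -0.31, with a median of -0.58 (-0.35 without the doubted libraries). In HCC827 all 7 were negative and 6 were lower without overlap (19.4% of all genes), and in PC9 6 were negative and 6 lower without overlap (27%). In HCC4006 5 were negative and 2 were lower without overlap (15.8%). PSMA7 had 567 and 577 FPKM in PC9 DMSO and 304 and 340 in dormant PC9. In HCC827 it had 441 and 107 in DMSO and 190 and 180 in dormant cells, and in HCC4006 544 and 590 against 432 and 417. Dormant libraries were below both controls in PC9 and HCC4006, and in HCC827 they lay between the doubted DMSO library and its replicate. The mean difference of PSMA7 was -0.49 ± 0.36 (limma, adjusted p = 0.366), and -0.82 ± 0.11 (adjusted p = 0.000477) without the doubted libraries.

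Of the catalytic subunits, none was called over the 12 libraries. PSMB5, the chymotrypsin-like subunit, had 186 and 153 FPKM in PC9 DMSO and 252 and 305 in dormant PC9. In HCC827 it had 482 and 153 in DMSO and 367 and 412 in dormant cells, and in HCC4006 314 and 428 against 378 and 61.6. Its groups were apart, with dormant cells higher, in PC9 alone, and its mean difference was -0.01 ± 0.47 (limma, adjusted p = 0.992). Without the doubted libraries it was 0.15 ± 0.14 (adjusted p = 0.427) and, in PC9, 0.71 ± 0.22 (adjusted p = 0.0437). PSMB6, the caspase-like subunit, had 581 and 509 FPKM in PC9 DMSO against 385 and 469 in dormant cells, 427 and 213 against 403 and 384 in HCC827, and 288 and 353 against 283 and 57.3 in HCC4006. It was lower without overlap in PC9 and HCC4006, in HCC4006 by a narrow margin for the first dormant library, with a mean difference of -0.43 ± 0.41 (limma, adjusted p = 0.493).

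PSMB7, the trypsin-like subunit, had the most negative mean difference of all members, -1.36 ± 0.70 (limma, adjusted p = 0.21). It went from 648 and 538 FPKM to 349 and 418 in PC9 and from 281 and 422 to 177 and 195.5 in HCC827. In HCC4006 it had 313 and 377 in DMSO and 331 and 9.31 in dormant cells. The groups did not overlap in PC9 and HCC827, and in HCC4006 they overlapped, with the doubted library far below the rest. Without the doubted libraries the difference was -0.42 ± 0.13 (adjusted p = 0.0269).

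PSMB1 and PSMB2 are structural beta subunits. PSMB1 had 320 and 263 FPKM in PC9 DMSO and 284 and 310 in dormant PC9, 349 and 434 against 278 and 284 in HCC827, and 686 and 790 against 695 and 49.4 in HCC4006. Its mean difference of -0.80 ± 0.55 became -0.12 ± 0.12 without the doubted libraries, and neither was called. PSMB2 had 288 and 250 FPKM in PC9 DMSO and 127 and 164 in dormant PC9, 74.4 and 50.4 against 38.1 and 44.0 in HCC827, and 78.0 and 109 against 88.6 and 21.7 in HCC4006. Dormant libraries were below both controls in PC9 and HCC827. In HCC4006 the first dormant library lay between the controls and the doubted one below both. The mean difference of PSMB2 was -0.84 ± 0.37 (limma, adjusted p = 0.148), and -0.60 ± 0.16 (adjusted p = 0.014) without the doubted libraries. Of the other beta genes, PSMB4 had a mean difference of -0.17 ± 0.52.

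All 6 ATPase ring genes were negative in the mean, from -0.60 to -0.13, with a median of -0.42 (-0.21 without the doubted libraries). None was called over the 12 libraries, and PSMC3 alone was called without the doubted ones. PSMC3 had 282 and 244 FPKM in PC9 DMSO and 169.6 and 237 in dormant PC9, 76.9 and 12.5 against 60.3 and 51.3 in HCC827, and 149.8 and 184 against 96.99 and 83.0 in HCC4006. Dormant cells were lower without overlap in PC9 and HCC4006. In HCC827 the dormant libraries lay between both controls, the lower of which is the doubted library. Its mean difference went from -0.15 ± 0.41 over 12 libraries (limma, adjusted p = 0.827) to -0.54 ± 0.15 (adjusted p = 0.0191).

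The mean differences of the 14 PSMD genes ran from -1.20 to 0.83 over the 12 libraries, 10 were negative, and 0 were called over the 12 libraries. PSMD14, the deubiquitinase that cuts ubiquitin chains from substrates as they enter, had 61.9 and 52.0 FPKM in PC9 DMSO and 37.6 and 28.0 in dormant PC9. In HCC827 it had 102 and 122 in DMSO and 63.3 and 63.5 in dormant cells, and in HCC4006 144 and 239.6 against 161.5 and 53.6. Dormant cells were lower without overlap in PC9 and HCC827 and overlapped the controls in HCC4006. The difference was -0.86 ± 0.33 (limma, adjusted p = 0.108), with a 95% interval of -1.60 to -0.12. With median of ratios scaling 3 members were called lower, PSMD14, PSMB2 and PSMD11, and 0 higher, where 8.54% and 8.12% of all genes were.

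PSMD11 and PSMD12 are subunits of the lid, the part of the regulatory particle that holds PSMD14. PSMD11 had 177 and 159.5 FPKM in PC9 DMSO and 108 and 105 in dormant PC9, 117 and 78.8 against 54.6 and 69.0 in HCC827, and 123 and 133 against 120.4 and 29.6 in HCC4006. It was the member with dormant libraries below both controls in every line, in HCC4006 by a narrow margin for the first dormant library. Its mean difference was -0.79 ± 0.36 (limma, adjusted p = 0.162). PSMD12 had 59.0 and 47.3 FPKM in PC9 DMSO and 31.2 and 25.2 in dormant PC9, 58.9 and 49.4 against 21.4 and 21.6 in HCC827, and 70.2 and 107 against 63.6 and 171 in HCC4006. The lines PC9 and HCC827 were apart, and in HCC4006 the dormant libraries lay on either side of the controls. Its mean difference was -0.64 ± 0.31 (limma, adjusted p = 0.188), and -0.92 ± 0.17 (adjusted p = 0.00265) without the doubted libraries.

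PSMD13, another lid subunit, had a mean difference that depended on 1 library. It had 145 and 122 FPKM in PC9 DMSO and 82.4 and 86.8 in dormant PC9, 82.8 and 67.9 against 67.6 and 73.3 in HCC827, and 206 and 211 against 213 and 2.82 in HCC4006. The first dormant HCC4006 library lay just above its controls and the doubted one was far below them. The mean difference was -1.20 ± 0.79 (limma, adjusted p = 0.319) over 12 libraries and -0.28 ± 0.12 (adjusted p = 0.0919) without the doubted libraries.

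The PSMD genes with differences near or above 0 were not called over the 12 libraries or without the doubted libraries. PSMD3 had 1.72 and 3.72 FPKM in PC9 DMSO and 4.34 and 6.05 in dormant PC9, 5.28 and 2.48 against 5.09 and 4.29 in HCC827, and 3.54 and 3.82 against 5.18 and 25.3 in HCC4006. It was higher without overlap in PC9 and HCC4006, with the doubted library the highest of the 12, and its difference was 0.83 ± 0.37 (limma, adjusted p = 0.155). With the first dormant HCC4006 library left out, which leaves the doubted one alone, PSMD3 was called at 1.18 (adjusted p = 0.00239). PSMD5, an assembly chaperone of the ATPase ring, had 8.75 to 19.7 FPKM across the 12 libraries, overlapped in every line and had a difference of 0.32 ± 0.27. PSMD10, also known as the oncoprotein gankyrin and a chaperone of the same ring, had 49.0 to 168 FPKM and a difference of 0.03 ± 0.28. PSMD1, a scaffold subunit, had 20.3 to 97.1 FPKM and a difference of 0.03 ± 0.33. PSMD1 and PSMD10 were negative under median of ratios and quantile scaling.

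The activators held the one called member. PSME1 and PSME2 form the interferon-inducible cap known as PA28. PSME1 had 103 and 83.4 FPKM in PC9 DMSO and 162 and 198 in dormant PC9. In HCC827 it had 358 and 265 in DMSO and 535 and 644 in dormant cells, and in HCC4006 103 and 146 against 294 and 1193. Dormant libraries were above both controls in every line, and the doubted HCC4006 library was by far the highest. The difference was 0.94 ± 0.64 in PC9, 0.93 ± 0.64 in HCC827 and 2.26 ± 0.64 in HCC4006, and 1.38 ± 0.37 in the mean (limma, adjusted p = 0.0342; 95% interval 0.55 to 2.21).

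Without the doubted libraries the PSME1 difference was 0.97 ± 0.16 (limma, adjusted p = 0.00132), with 0.94 ± 0.23 in PC9, 0.71 ± 0.29 in HCC827 and 1.25 ± 0.29 in HCC4006. The call over 12 libraries was kept when the first HCC827 DMSO library or either dormant HCC4006 library was left out, and was lost when any of the other 9 was left out alone, with differences of 1.04 to 1.71 and adjusted p of 0.000143 to 0.110 over the 12 fits. It was also lost without a filter on low values, with median of ratios scaling and with a replicate block, over differences of 1.07 to 1.38.

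PSME2 had 120 and 102 FPKM in PC9 DMSO and 161 and 185 in dormant PC9, 563 and 687 against 583 and 624 in HCC827, and 181 and 221 against 274 and 42.3 in HCC4006. It was higher without overlap in PC9 and overlapped in the other lines, where the doubted libraries were the highest control and the lowest dormant library. Its mean difference was -0.10 ± 0.43 (limma, adjusted p = 0.896) and, without the doubted libraries, 0.40 ± 0.13 (adjusted p = 0.0326). PSME3, the nuclear activator, had 34.1 and 35.7 FPKM in PC9 DMSO and 22.7 and 17.9 in dormant PC9, 36.9 and 12.8 against 32.1 and 25.0 in HCC827, and 31.2 and 38.1 against 25.8 and 7.13 in HCC4006. It was lower without overlap in PC9 and HCC4006, and its difference was -0.56 ± 0.38 (limma, adjusted p = 0.332). PSME4, a large single-chain activator, had 3.91 and 3.82 FPKM in PC9 DMSO and 6.25 and 3.09 in dormant PC9, 7.11 and 19.4 against 7.03 and 6.16 in HCC827, and 7.08 and 16.0 against 19.1 and 10.1 in HCC4006. It overlapped in PC9 and HCC4006, was lower without overlap in HCC827 and had a difference of -0.08 ± 0.34. PSMF1, an inhibitor of the core particle, was at -0.31 ± 0.48.

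**Figure D3:**
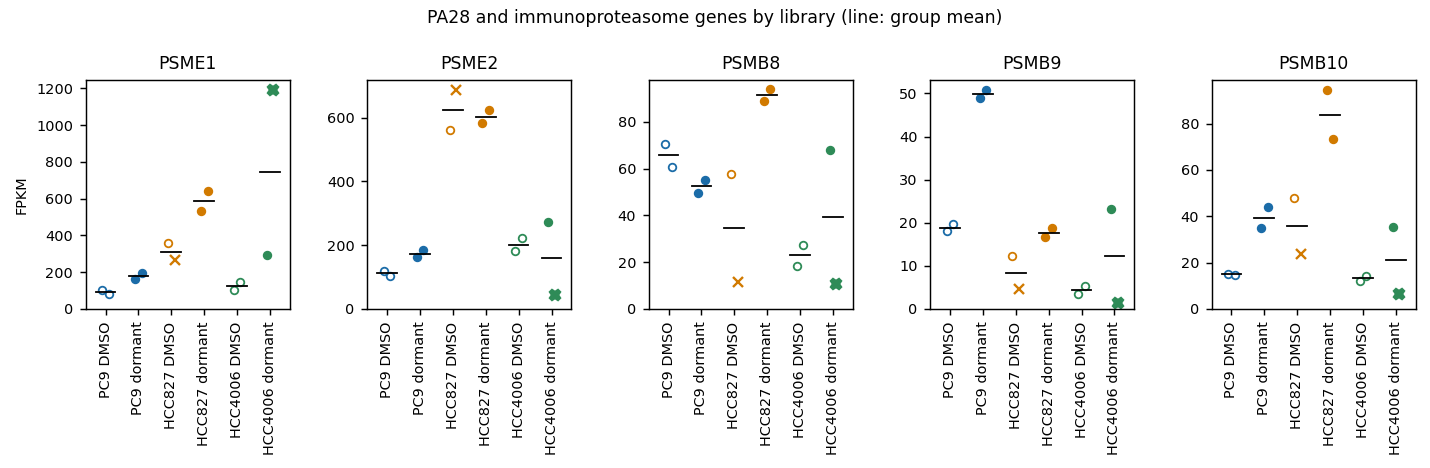
FPKM of the PA28 genes PSME1 and PSME2 and of the immunoproteasome genes PSMB8, PSMB9 and PSMB10 in each library by line and treatment, with a line at each group mean (n = 2). Crosses mark the doubted libraries; PSME1 is higher in both dormant libraries of all 3 lines, and the second dormant HCC4006 library is the lowest of its line for the 4 other genes.

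The immunoproteasome genes, left out of the members, were compared with PSME1 and PSME2 because they are known to be induced with them. PSMB9 had 18.0 and 19.7 FPKM in PC9 DMSO and 49.0 and 50.8 in dormant PC9, 12.3 and 4.62 against 16.6 and 18.8 in HCC827, and 3.4 and 5.21 against 23.2 and 1.48 in HCC4006. PSMB10 had 15.3 and 14.8 against 35.0 and 43.9 in PC9, 48.0 and 23.7 against 94.6 and 73.2 in HCC827, and 12.2 and 14.3 against 35.5 and 6.27 in HCC4006. PSMB8 had 70.7 and 60.6 against 49.5 and 55.3 in PC9, 57.6 and 11.3 against 88.8 and 93.9 in HCC827, and 18.4 and 27.3 against 67.9 and 10.47 in HCC4006. In PC9 the dormant libraries were higher for PSMB9 and PSMB10 and lower for PSMB8, in HCC827 they were higher for all 3, and in HCC4006 they lay on either side of the controls. The mean differences were 0.58 ± 0.51, 1.01 ± 0.51 and 0.93 ± 0.40 for PSMB8, PSMB9 and PSMB10. Of the 3, 0 were called over the 12 libraries, where 10.9% of all genes were called higher and 4.55% lower. Without the doubted libraries the differences were 0.63 ± 0.15, 1.35 ± 0.16 and 1.16 ± 0.15, so the SE was smaller and all 3 stayed positive.

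Genes that share regulation or function with the proteasome were counted in lists, chosen with earlier results of these data known. Of 10 antigen presentation genes 4 were called higher and 0 lower, with a median of 1.37, among them HLA-B at 2.54, HLA-C at 2.23 and the peptide trimming enzyme gene ERAP1 at 1.38. Of 9 interferon response genes 3 were called higher, GBP2 at 1.91, GBP1 at 1.53 and MX1 at 1.5, with a median of 1.18. Of all genes 10.9% were called higher in this fit. With the doubted libraries left out, 7 of 10 and 9 of 9 were called higher, where 30% of all genes were. Over the 12 fits with 1 library left out, HLA-B, GBP1 and GBP2 were called in all 12, ERAP1 in 10, HLA-C in 4 and MX1 in 3. All 10 and all 9 differences were positive, against 63.5% of all genes.

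The transcription factors known to activate proteasome genes were among the called genes. NFE2L1, which induces the subunit genes when the proteasome is inhibited, rose by 0.84 ± 0.21 (limma, adjusted p = 0.0277) at low levels of 0.475 to 5.42 FPKM. NFE2L2, the regulator of the antioxidant response, rose by 1.34 ± 0.29 (adjusted p = 0.0131). It had 9.59 and 13.5 FPKM in PC9 DMSO and 30.6 and 18.6 in dormant PC9, 14.5 and 10.9 against 30.7 and 27.9 in HCC827, and 19.9 and 26.9 against 62.1 and 121 in HCC4006. Its groups did not overlap in any line. Over the 12 fits with 1 library left out, NFE2L2 was called in 9, all but those without the first PC9 DMSO, first dormant PC9 or first dormant HCC827 library (adjusted p = 0.0606, 0.0534 and 0.0542). NFE2L1 was called in 3, those without the second HCC827 DMSO or either dormant HCC4006 library, with an adjusted p of up to 0.09997 otherwise, and in 5 of 10 other settings. Of 11 genes in this list, 10 were tested, 2 were called higher and 0 lower, where 10.9% and 4.55% of all genes were. Their median difference was 0.43 (0.40 without the doubted libraries). Of 8 NFE2L2 target genes 0 were called, with a median of 0.22 (0.14 without the doubted libraries).

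Over the 12 libraries 10.9% of all genes were called higher in the mean and 4.55% lower. Of 6 assembly factors 0 were called, with a median of -0.24. The maturation factor gene POMP, whose protein is needed to build the beta ring, had 53.9 to 405 FPKM in 11 libraries and 2728 in the second HCC4006 dormant library, with a difference of 0.04 ± 0.59 (-0.26 without the doubted libraries). PSMG1 was at -0.79, PSMG3 at -1.32 and PAAF1 at 0.20. Without the doubted libraries they were at -0.64, -0.72 and 0.69. Of 8 proteasome-bound partners 0 were called. UCHL5, a deubiquitinase of the regulatory particle, was at -0.67, and at -0.93 without the doubted libraries. Of 9 shuttle factors and p97 genes, UBQLN2 alone was called higher, at 1.55 (in 3 of the 12 fits with 1 library left out). Without the doubted libraries UBQLN2, VCP and NPLOC4 were at 0.88, 0.35 and 0.56. Of 6 ubiquitin and E1 genes 0 were called, with a median of -0.60 (-0.02 without the doubted libraries).

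Other multi-subunit complexes were counted for comparison. In the mean over the 12 libraries 4.55% of all genes were called lower and 10.9% higher. Of 9 genes of the COP9 signalosome, a relative of the proteasome lid, COPS3 was called lower at -1.36 and 0 were called higher, with a median of -0.02. Of 13 genes of the initiation factor eIF3, 0 were called, with a median of -0.32. Of 8 genes of the chaperonin CCT, CCT5 at -1.28 and CCT6A at -1.17 were called lower and all 8 were negative, with a median of -0.98. With 1 library left out, CCT5 was called in 3 of 12 fits, CCT6A in 4 and COPS3 in 2. In the fit of 10 libraries, without the doubted ones, the median was -0.84 for CCT, -0.17 for eIF3 and 0.0062 for the COP9 signalosome. There the 37 proteasome members had a median of -0.26 and all genes 0.20. In PC9, HCC827 and HCC4006 the members had medians of -0.35, -0.37 and -0.06 in this fit, and CCT had -1.01, -0.89 and -0.63. The medians of eIF3 were -0.24, 0.03 and 0.10, and those of the COP9 signalosome -0.10, -0.01 and 0.34. No test compared these lists.

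The untreated lines differed in some proteasome genes by more than any dormant cells differed from their controls. A moderated F test among the 3 DMSO groups called 3 of the 37 members, where it called 12% of all genes: PSMC1, PSMA6 and PSMC3. PSMC1, an ATPase involved in opening the gate of the barrel, had 37.0 and 23.9 FPKM in PC9 DMSO, 194 and 151 in HCC827 DMSO and 898 and 1084 in HCC4006 DMSO (limma, adjusted p = 0.000332). The lines did not overlap, and the dormant libraries kept the same order, with 30.6 and 24.4, 141 and 142, and 614.5 and 469.7 FPKM. The HCC4006 level was 5.01 log2 units above PC9 and that of HCC827 2.48 above.

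PSMA6, an alpha subunit, had 258 and 221 FPKM in PC9 DMSO, 918 and 1548 in HCC827 DMSO and 1799 and 1965 in HCC4006 DMSO (limma, adjusted p = 0.0278), again without overlap. PSMC3 was highest in PC9 and lowest in HCC827, with 282 and 244 FPKM in PC9 DMSO, 76.9 and 12.5 in HCC827 and 149.8 and 184 in HCC4006 (limma, adjusted p = 0.0424). With the doubted libraries left out, 22 members were called, where 48.4% of all genes were. With each of the 12 libraries left out in turn, PSMC1 was called every time. PSMA6 was called in 4 of these fits, those without either HCC827 DMSO or either dormant HCC4006 library, and PSMC3 in 3, those without the first HCC827 DMSO or either dormant HCC4006 library.

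PSMC1 has close copies elsewhere in the genome, and its value is uncertain in so far as the authors' counting could split reads between them. The table holds 30 pseudogene rows of 10 members, of which 4 had a median of at least 1 FPKM. PSMC1P1 and PSMC1P5 had 19.6% to 32.8% and 17.4% to 30.4% of the PSMC1 level in 11 libraries and 0.73% and 0% in the second HCC4006 dormant library. PSMC1P1 had 7.26 and 7.84 FPKM in PC9 DMSO, 49.5 and 34.1 in HCC827 DMSO and 287 and 316 in HCC4006 DMSO. Its levels followed those of PSMC1 across the lines. PSMA6P1 had 0.245% to 0.522% of the PSMA6 level.

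Of the 37 members, 27 were higher in HCC4006 DMSO than in PC9 DMSO, with a median of 0.58 (0.32 over all genes), and 19 were higher in HCC827 than in PC9, with a median of 0.01 (0.08). All 7 members on chromosome 14 (PSMA3, PSMA6, PSMB5, PSMC1, PSMC6, PSME1 and PSME2) were higher in both lines than in PC9, with medians of 1.12 in HCC4006 and 1.72 in HCC827. That chromosome was looked at after the values were seen. Over its 427 tested genes with a RefSeq position the medians were 0.78 and 0.62, the highest of 23 chromosomes in each comparison. Of these genes, 79.9% were higher in HCC4006 than in PC9 and 72.1% in HCC827. By chromosome, the share of genes that were higher ran from 55.0% to 84.8% in HCC4006 and from 30.6% to 72.1% in HCC827. Both comparisons share the PC9 DMSO libraries.

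**Figure D4:**
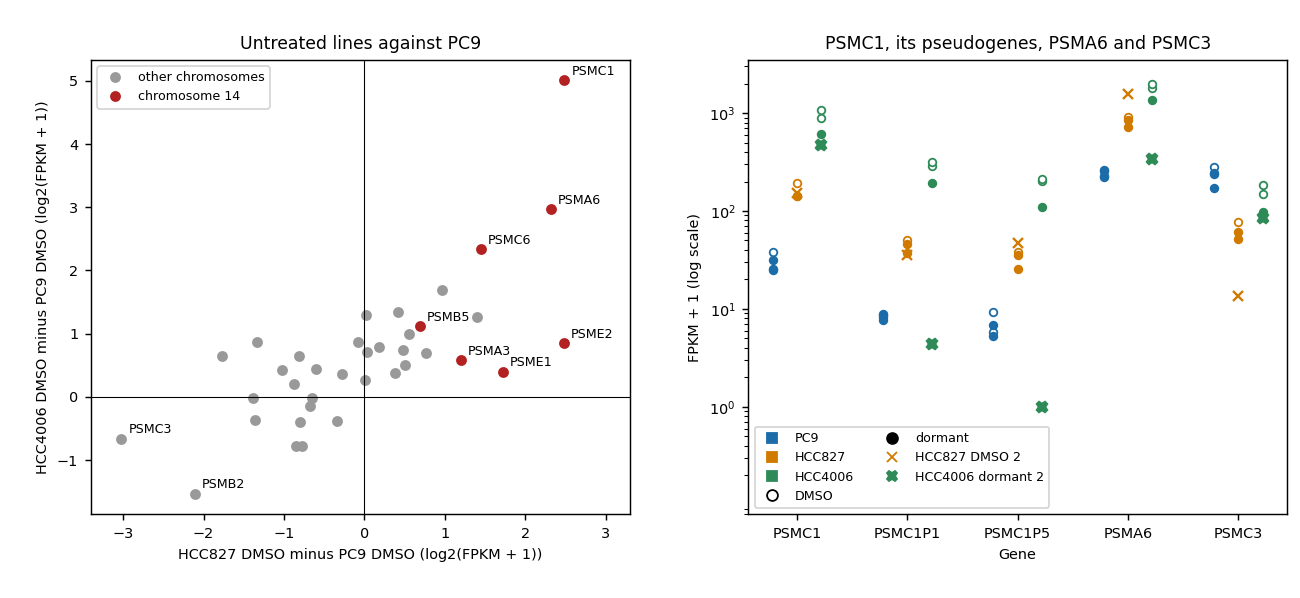
Left, difference of untreated HCC4006 (vertical) and untreated HCC827 (horizontal) from untreated PC9 on the log2(FPKM + 1) scale for each of the 37 tested members; the 7 members on chromosome 14 (red) are all above 0 on both axes. Right, FPKM + 1 (log axis) of PSMC1, its pseudogenes PSMC1P1 and PSMC1P5, PSMA6 and PSMC3 in the 12 libraries, with symbols for line, treatment and doubted libraries. PSMC1 rises from PC9 to HCC827 to HCC4006 in all libraries, and both pseudogenes do so in all but the second dormant HCC4006 library.

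The libraries of a pair of groups differed for many members. In the dormant HCC4006 group 24 of the 37 members differed by more than 1 log2 unit between the libraries, from -5.81 for PSMD13 to 2.09 for PSMD3, where 57.7% of all genes did. In the HCC827 DMSO group 17 did, from -2.96 for PSMD2 to 1.54 for PSMA4, where 24.7% of all genes did. In the other 4 groups 0 to 2 members did. The replicate difference of a member went with the GC content of its transcript, which ran from 36.8% to 58.6%. As a description over the 37 members, which share libraries, Spearman's rho was -0.65 in HCC827 DMSO, -0.60 in HCC4006 DMSO, -0.42 in dormant HCC4006, 0.74 in dormant PC9, 0.38 in PC9 DMSO and -0.22 in dormant HCC827. The dormant minus DMSO difference had a rho with GC content of 0.63 in HCC827 and -0.46 in HCC4006, and of -0.01 and -0.09 without the doubted libraries. In PC9, which has no doubted library, it was 0.39. The part of GC content in the differences was not tested.

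**Figure D5:**
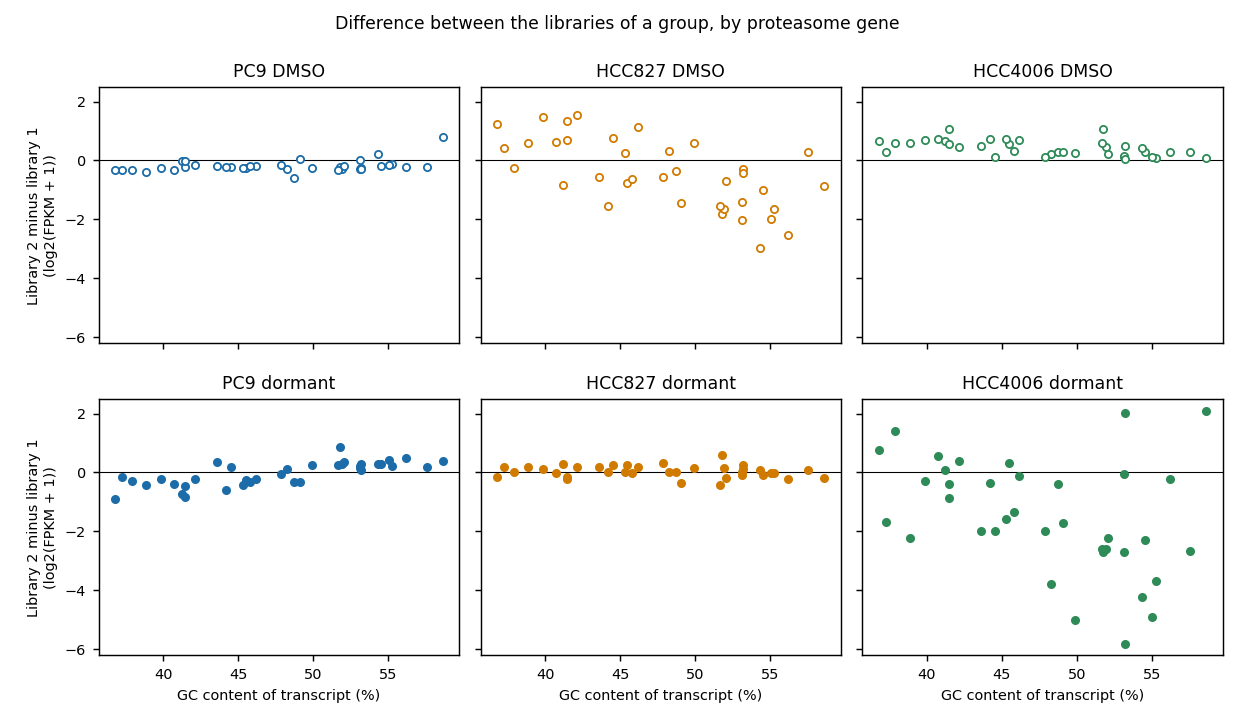
Second minus first library of each group on the log2(FPKM + 1) scale (vertical) against the GC content of the transcript in percent (horizontal) for the 37 tested proteasome genes. The HCC827 DMSO and dormant HCC4006 panels are the widest, with 17 and 24 members more than 1 unit apart, and the PC9 panels slope upward with GC content.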

How the data were processed

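Stranded mRNA libraries were sequenced from 12 samples in 6 groups of 2. The authors deposited FPKM per gene in 1 table of 57905 genes with 24 value columns, 2 for each library, whose names end in R1 and R2 and whose meaning is not given in the sources used here. The submitters' processing notes list the builds hg19 and GRCh37 with DESeq2 1.10.1, STAR 2.5.1b and Cufflinks 2.2.1, and give no role to any. Both columns of a library were averaged and counted as 1 library. Depth is unknown and no counting interval is given.

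The unscaled log2(FPKM + 1) values were used for genes at 1 FPKM or more in at least 2 libraries. The added 1 understates changes of low genes. Group means were estimated in limma 3.58.1 under R 4.3.3 (lmFit, then trended eBayes; 6 residual and 3.8 prior degrees of freedom), so that 1 spread per gene is shared by all groups. The tests were two-sided and adjusted by Benjamini-Hochberg over all 14699 genes. They were also run on simulated data that had the same spread in every library. That run cannot show how they behave with libraries of unequal spread, as here. Other pseudocounts, filters, scalings, single columns, a replicate block, array weights, each line alone and each library left out were tried.

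The members and gene lists were chosen with earlier results of these data known. Genes named with values for each library are the catalytic subunits, PSMD14, the activators, the 6 largest and 6 smallest mean differences, members called, and the immunoproteasome genes; PSMA7 and PSMD12 were added after their values were seen. A few genes that were analysed are not reported here. Promoters and chromosomes come from RefSeq on GRCh38.p14 and GC content from GENCODE 29, matched by name. No position of a gene is given for the FPKM values, which are on another build.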

Additional observations from a re-analysis of the deposited data

How the results depend on the processing

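Over the 12 libraries the counts of members called were 1 higher and 0 lower in the mean, 0 in each line and between lines, and 3 between untreated lines. In the mean, the count higher was 0 with no filter on low values, with median of ratios scaling and with a replicate block, and 2 without both doubted libraries. The count lower was 3 with median of ratios scaling and 9 without both doubted libraries. In PC9, array weights gave 1 higher and 7 lower (18.3% and 12.2% of all genes), PC9 fitted alone gave 1 and 4 (10.9% and 7.35%), and leaving out both doubted libraries gave 3 and 8, though neither is a PC9 library. Leaving out both gave 3 lower in HCC827 and 1 higher in HCC4006. Between untreated lines the count was 1 with no filter, 1 with the replicate block, 14 with array weights (42.6% of all genes) and 22 without both doubted libraries (48.4%). The PC9 differences were the same with and without both doubted libraries, and their SE changed, since 1 spread per gene is shared by all groups. For PSME1 in PC9 it was 0.94 ± 0.64 over the 12 libraries and 0.94 ± 0.23 without both. The cause of the other shifts was not tested.

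With each library left out in turn, the count in the mean ran from 0 to 2 higher and from 0 to 17 lower, in HCC827 from 0 to 1 higher and 0 to 1 lower, and in HCC4006 from 0 to 2 higher and 0 to 21 lower. Between lines it ran from 0 to 18 and between untreated lines from 1 to 13. The values 17, 21 and 18 all came from leaving out the first dormant HCC4006 library, which leaves the doubted one alone in its group. That fit called 17.8% of all genes lower in the mean, 27.4% lower in HCC4006 and 54.8% different between lines. The 13 between untreated lines came from leaving out either dormant HCC4006 library, where 43.1% of all genes were called.

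Differences near 0 changed sign. PSMB5, PSME2 and PSME4 were at 0.12, 0.030 and 0.034 with equal column sums and at 0.15, 0.40 and 0.28 without both doubted libraries. PSMD10 and PSMD1 were at -0.27 and -0.27 with median of ratios scaling and at -0.0319 and -0.12 with quantile normalization, and PSMD1 was at -0.17 without both doubted libraries. POMP was at -0.27 with median of ratios scaling and -0.26 without both. With 1 library left out, the ranges were -0.44 to 0.42 for PSMB5, -0.54 to 0.35 for PSME2, -0.30 to 0.14 for PSME4, -0.086 to 0.14 for PSMD10, -0.23 to 0.29 for PSMD1, -0.57 to 0.65 for POMP and -0.69 to 0.075 for PSMF1.

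Same-numbered DMSO and dormant libraries deviated from their group means with correlations of 0.0906 in PC9, 0.0372 in HCC827 and 0.168 in HCC4006, so the numbers were not taken to pair the samples. The replicate block lost the PSME1 call in the mean and left PSMC1 of the 3 members called between untreated lines.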

Other observations

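The genes next to PSMC1 and PSMA6, both on chromosome 14, were looked at after the levels of these members in untreated cells were seen. Of the 5 tested genes on each side of PSMC1 in RefSeq, all 10 were higher in HCC4006 DMSO than in PC9 DMSO, with a median difference of 1.90, where the median over all genes was 0.32. Around PSMA6 all 10 were also higher, with a median of 2.03. Of the tested genes of chromosome 14, 79.9% were higher in HCC4006 DMSO than in PC9 DMSO. CFL2, an actin-severing protein gene, had means of 9.64 FPKM in PC9 DMSO, 92.4 in HCC827 DMSO and 133 in HCC4006 DMSO. NKX2-1, the lineage transcription factor of lung epithelium, was listed at 0 in both PC9 DMSO libraries and had means of 2.16 and 2.06 FPKM in HCC827 and HCC4006 DMSO. Around PSMC3, on chromosome 11, 5 of 10 were higher, with a median of -0.07, where 61.2% of the tested genes of that chromosome were higher. Neighbours are named from a later build than that of the FPKM values. These are values, and their cause was not tested.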
